A study of Homo sapiens with 4 samples.

Results

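Kinetochore and spindle genes were followed in MV4-11, a human acute myeloid leukemia (AML) cell line, after knockdown of ANP32B, a nuclear histone-binding protein. The set holds 49 of the 18885 genes listed in the deposited table, chosen by their known role in chromosome segregation and matched by symbol. Earlier results of these data were known when the set was chosen. The comparison was between groups of 2 libraries each. The NC group was labelled as untreated MV4-11 with no shRNA, although the study's methods describe a control hairpin, and the sh-ANP32B group was labelled as MV4-11 with ANP32B knockdown. The hairpins of the study were delivered by lentivirus, and the cells were selected with puromycin. The hairpin behind these libraries was not named, and the labels did not say whether the 2 libraries of a group came from separate cultures, so each p-value measures only the spread between these libraries. If the NC cells carried no hairpin, transduction and selection cannot be told apart from the loss of ANP32B. The deposited values are in TPM, an RNA abundance scale that corrects for gene length, and their totals were nearly equal in all 4 libraries. Levels can therefore be set side by side between genes, but the sequencing depth is unknown. ANP32B itself stood at 358 and 364 TPM in NC and at 54.1 and 49.3 TPM in sh-ANP32B, which left 14.3% of the control mean. All 8 markers listed for this monocytic AML line were in the table, whereas 1 of the 11 markers of erythroid, T, B, epithelial and fibroblast cells was, and the defining markers CD3E, EPCAM and COL1A1 were not listed. Of the 8 markers of the line, 3 rose and 1 fell. The log2 fold change of sh-ANP32B against NC, below log2FC, was 3.50 for LYZ, 1.15 for PTPRC, 0.51 for SPI1 and -0.61 for MEIS1, and the part of these markers in the results was not tested.

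The kinetochore is the protein machine that joins each centromere to spindle microtubules. Its inner layer (the CENP proteins) sits on chromatin that carries the centromeric histone CENPA, and its outer layer (the KMN network of KNL1, the MIS12 complex and the NDC80 complex) holds the microtubule end. Mitotic kinesins and microtubule-binding proteins build the spindle, and the spindle checkpoint delays anaphase until every kinetochore is attached. Most of these genes are known to be transcribed mainly in late S phase, G2 and mitosis, and are bound by the DREAM repressor in resting cells and by B-MYB and FOXM1 in cycling cells.

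Nearly the whole set was reduced after ANP32B knockdown. Together the 49 genes held 3347 and 3368 TPM in NC and 1773 and 1789 TPM after knockdown, which was 0.335% and 0.337% of all TPM against 0.178% and 0.179%. In limma on log2(TPM + 1), with Benjamini-Hochberg adjustment over all 16937 genes tested, 42 of the 49 fell at an adjusted p below 0.05 and a log2FC below -0.5, and 0 rose. Of all genes tested, 10.1% were called lower and 17.9% higher by the same rule. At an unadjusted p below 0.05, the counts were again 42 and 0, against 10.8% of all genes called lower. By the adjusted p alone 47 were lower (19.7% of all genes), and at a fold limit of 1 on the log2 scale 15 were (1.61%). All 49 had both sh-ANP32B libraries below both NC libraries, against 32.1% of all genes tested. The median log2FC of the 49 was -0.87, from -1.45 for CENPH to -0.19 for MIS12, whereas the median of all genes tested was 0.079. In TPM, the median gene kept 54.1% of its control mean, and the range ran from 35.9% to 87.0%. For all 49, the difference between the group means was larger than the larger gap between replicates of 1 group. This was not counted over all genes tested, so how common it was in the table is unknown. The median gap was 0.062 in NC and 0.095 in sh-ANP32B on the log2 scale. The smallest two-sided p that an exact permutation of 2 against 2 libraries can give is 0.333, so each adjusted p rests on the spread that limma shares across genes.

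**Figure D1:**
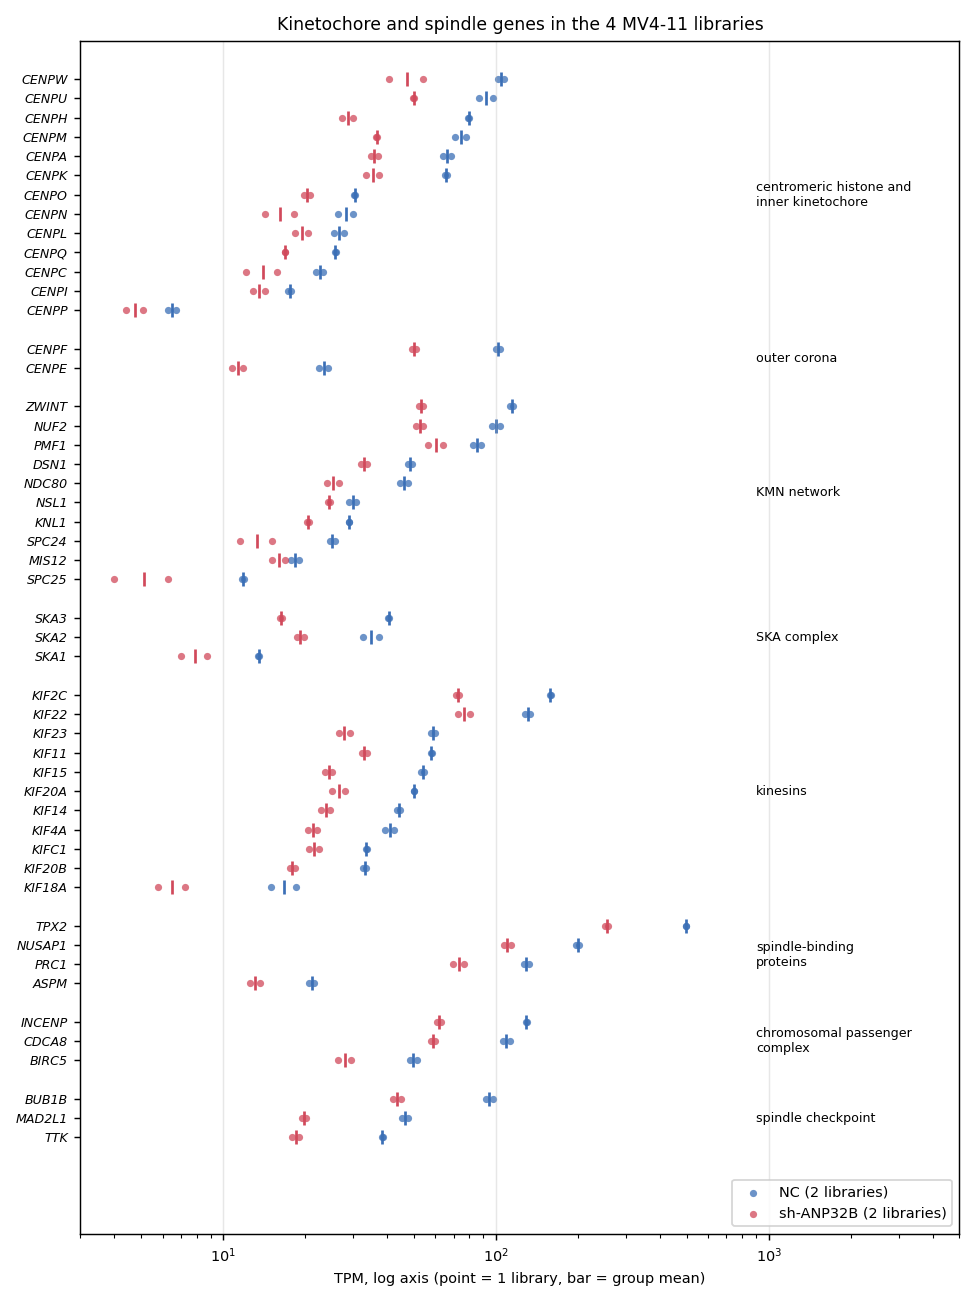
TPM of the 49 kinetochore and spindle genes on a log axis, ordered by role and by the NC mean, with 1 point per library and a bar at each group mean. In every row both sh-ANP32B points lie to the left of both NC points, with MIS12 the closest pair of groups.

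The split between lower and higher genes over the whole table depended on scaling. Lower genes made up 36.1% of all calls on the TPM as deposited, 49.01% after median-of-ratios scaling and 50.2% after quantile normalization. Quantile normalization also shifted the median of all genes by -0.12 in log2 units, and the median of the 49 genes then lay -0.83 from that of all genes, against -0.95 as deposited. In bulk RNA, fewer dividing cells and less RNA per dividing cell cannot be told apart. Genes used as a reference for proliferation moved with the set. MKI67 had 103 and 108 TPM in NC and 56.3 and 53.1 TPM in sh-ANP32B, TOP2A 255 and 259 against 127 and 131 TPM, and PCNA 402 and 403 against 192 and 192 TPM. All 5 genes of that list (with CCNB1 and CDK1) fell, with a median log2FC of -0.99, and their part in the result was not tested.

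The promoters of the set were searched for elements known from genes of this kind. The members were chosen by role, and most such genes are known to be bound by DREAM, B-MYB and FOXM1. A high share of these elements could therefore be foreseen from the choice of members, and it does not depend on the knockdown. The CHR (cell cycle genes homology region), the element through which DREAM and B-MYB reach G2/M genes, was searched as TTTGAA or TTCGAA on either strand, in windows from 250 bases before to 50 bases after the RefSeq start (GRCh38.p14). It was found in 28 of the 42 members with a window (66.7%), in 11.3% of 10015 tested genes with a window and in 16.6% of all 27305 windows. The CCAAT box, searched as CCAAT on either strand, was found in 29 members (69%), against 36.5% of tested genes and 35.7% of all windows. Both elements together were present in 21 members (50%), against 4.81% of tested genes and 6.58% of all windows. E2F-like letters, searched as TTCCCGC or TTGGCGC on either strand, were found in 10 members (23.8%), against 14.6% and 9.33%. The letters of the CHR and the CCAAT box can overlap at their ends. The CHR lay within 50 bases of the start in 25 members (59.5%), against 3.33% of tested genes and 5.05% of all windows, a distance chosen after the positions were seen. All 28 members with a CHR fell, with a median log2FC of -0.87 and a range from -1.26 to -0.56. Of the 14 without one, 9 fell, with a median of -0.71 and a range from -1.12 to -0.19. The 5 members with a window that were not called (MIS12, NSL1, CENPI, CENPP and PMF1) were all among those 14. The RefSeq start lay within 100 bases of the GENCODE gene start for 29 of the 42. Among these, 19 had a CHR and all 19 fell, and 7 of the other 10 fell. Over all genes tested 10.1% fell, but this share was not split into genes with and without a CHR. The counts by CHR therefore have no background of their own, and the part of the CHR in the fall was not tested. A match is a run of letters, not a bound site.

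The 80 bases before the RefSeq start are shown for 5 genes that fell and hold both elements there, and for 2 genes that were not called and hold no CHR. Both elements lay within this stretch in 9 members. Genes were shown only where the stretch reached at most 30 bases into the gene as annotated by GENCODE. A second condition was that the RefSeq and GENCODE starts lay within 100 bases of each other. Capitals mark the CHR and CCAAT letters (or their reverse complements), and each line reads 5′ to 3′ on the gene's strand up to the base before the start.
KIF18A: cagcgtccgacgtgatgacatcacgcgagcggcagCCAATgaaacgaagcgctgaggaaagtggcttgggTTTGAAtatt
ZWINT: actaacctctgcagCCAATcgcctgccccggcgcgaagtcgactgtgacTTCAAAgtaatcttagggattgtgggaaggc
INCENP: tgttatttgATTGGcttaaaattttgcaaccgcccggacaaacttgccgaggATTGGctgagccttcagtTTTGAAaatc
KIF4A: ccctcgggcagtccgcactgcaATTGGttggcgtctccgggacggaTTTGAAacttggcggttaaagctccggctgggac
KIF22: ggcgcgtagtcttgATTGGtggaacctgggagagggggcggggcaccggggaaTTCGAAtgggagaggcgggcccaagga
NSL1: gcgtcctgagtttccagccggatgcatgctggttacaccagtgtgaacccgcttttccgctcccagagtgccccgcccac
PMF1: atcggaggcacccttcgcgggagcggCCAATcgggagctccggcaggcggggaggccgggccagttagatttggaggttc
These stretches lie at chr11:28108157-28108236 (minus strand) for KIF18A, chr10:56361260-56361339 (minus strand) for ZWINT, chr11:62123931-62124010 (plus strand) for INCENP and chrX:70290024-70290103 (plus strand) for KIF4A. Those of KIF22, NSL1 and PMF1 lie at chr16:29790671-29790750 (plus strand), chr1:212791778-212791857 (minus strand) and chr1:156212927-156213006 (plus strand). The CHR began 10 bases before the start in KIF18A and INCENP and 34 bases before it in KIF4A, and a CCAAT box lay farther out in each.

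The inner kinetochore held the gene that fell most. CENPH (chromosome 5 of hg38, from 69189574 to 69210357), which links the inner layer to the microtubule-binding layer, had 79.2 and 79.9 TPM in NC and 27.3 and 29.9 TPM in sh-ANP32B. This was a log2FC of -1.45 (standard error 0.065, adjusted p = 0.000121 from limma), and the groups were far apart. CENPW, a histone-fold protein that anchors the kinetochore to DNA with CENPT, had the highest control level of the 13 inner genes, at 102 and 107 TPM. It dropped to 40.7 and 54.05 TPM, at a log2FC of -1.14 (standard error 0.13), and its knockdown libraries differed from each other more than its control libraries. CENPM, a small protein of the same subcomplex as CENPH, had 71.03 and 78.01 TPM against 36.7 and 36.4 TPM, at a log2FC of -1.01. CENPA, the histone variant that defines the centromere, had 68.3 and 64.1 TPM in NC and 36.9 and 34.8 TPM in sh-ANP32B, at a log2FC of -0.87 (standard error 0.063, adjusted p = 0.00036 from limma). Of the 13 genes of this layer in the set, 10 fell, with a median log2FC of -0.77. Control means ran from 6.503 TPM for CENPP to 104 TPM for CENPW. Outside the set, CENPT had 68.8 and 77.3 TPM in NC and 81.5 and 80.2 TPM in sh-ANP32B. Its log2FC was 0.15 and it was not called, whereas CENPS and CENPX fell (-0.59 and -0.70).

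Members of the same subcomplex were reduced to different extents, and these differences were not tested against each other. In the CENP-H, I, K and M group, CENPK fell from 66.4 and 65.01 TPM to 33.4 and 37.4 TPM (log2FC -0.88), whereas CENPI had 17.7 and 17.4 TPM in NC and 14.2 and 12.9 TPM in sh-ANP32B. The log2FC of CENPI was -0.35 (95% interval -0.58 to -0.12, adjusted p = 0.0275 from limma), so it did not reach the limit of 0.5, although its groups did not overlap. The ratio of CENPH to CENPI was 4.47 and 4.604 in NC and 1.92 and 2.32 in sh-ANP32B, so the RNA of these partners was less unequal after knockdown. In the CENP-O, P, Q and U group, which recruits the mitotic kinase PLK1 through CENPU, CENPU had 97.8 and 86.99 TPM against 49.9 and 50 TPM, at a log2FC of -0.87. CENPO (30.3 and 30.5 against 19.8 and 20.7 TPM) and CENPQ (25.8 and 25.8 against 16.8 and 16.8 TPM) fell by smaller amounts, with log2FCs of -0.56 and -0.59. CENPP, the lowest of the set, had 6.30 and 6.71 TPM in NC and 5.07 and 4.42 TPM in sh-ANP32B (log2FC -0.39, adjusted p = 0.0748 from limma) and was not called. CENPN, which reads the CENPA nucleosome, fell from 30.04 and 26.3 TPM to 14.3 and 18.1 TPM (log2FC -0.77). Its partner CENPL had 25.6 and 27.7 TPM against 20.5 and 18.3 TPM, and its log2FC of -0.44 did not reach the limit. CENPC, the scaffold between centromeric chromatin and the MIS12 complex, had 21.8 and 23.3 TPM in NC and 15.8 and 12.1 TPM in sh-ANP32B. Its log2FC was -0.66 (adjusted p = 0.0117 from limma), and it was -0.49 and no longer past the limit without the second sh-ANP32B library.

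In the KMN network, all 4 subunits of the NDC80 complex fell and 1 of 4 subunits of the MIS12 complex did. NDC80, which contacts the microtubule, had 47.8 and 44.4 TPM in NC and 26.6 and 24.1 TPM in sh-ANP32B, at a log2FC of -0.84 (standard error 0.079, adjusted p = 0.000787 from limma). Its partner NUF2 had 104 and 96.8 TPM against 51.04 and 54.2 TPM, at a log2FC of -0.92. SPC24 and SPC25 form the end of the complex that faces the chromosome. SPC24 had 24.6 and 25.7 TPM in NC and 11.5 and 15.1 TPM in sh-ANP32B, at a log2FC of -0.88. SPC25 had 11.9 and 11.7 TPM in NC and 3.997 and 6.30 TPM in sh-ANP32B, at a log2FC of -1.09 with the widest standard error of the set, 0.20. NUF2 RNA was above NDC80 RNA in each library, by 2.17 and 2.18 times in NC and 1.92 and 2.25 times in sh-ANP32B. The order NUF2, NDC80, SPC24 and SPC25 held in all 4 libraries.

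The MIS12 complex, which links the NDC80 complex to the inner layer, was nearer to its control level. DSN1 fell from 49.4 and 47.5 TPM to 33.7 and 32.1 TPM, with a log2FC of -0.55 (adjusted p = 0.00145 from limma), just past the limit. PMF1 had 82.1 and 88.1 TPM in NC and 56.3 and 64.1 TPM in sh-ANP32B, and its log2FC of -0.49 fell just inside. NSL1 had 30.8 and 28.9 TPM against 24.2 and 24.7 TPM, at a log2FC of -0.28. MIS12 (chromosome 17 of hg38, from 5486285 to 5490814) had 17.8 and 18.97 TPM in NC and 15.2 and 16.8 TPM in sh-ANP32B, at a log2FC of -0.19 (95% interval -0.43 to 0.05, adjusted p = 0.153 from limma). Its groups were separate but close. Summed over subunits, the NDC80 complex held 1.04 and 0.974 times the TPM of the MIS12 complex in the NC libraries and 0.720 and 0.724 times in the sh-ANP32B libraries. KNL1, the scaffold on which checkpoint proteins gather, had 29.05 and 28.9 TPM against 20.3 and 20.7 TPM and a log2FC of -0.48, inside the limit, with adjusted p = 0.00333 from limma. ZWINT, its binding partner, had 113 and 116 TPM in NC and 52.4 and 54.3 TPM in sh-ANP32B, at a log2FC of -1.08 (standard error 0.048). The ratio of ZWINT to KNL1 was 3.88 and 4.002 in NC and 2.58 and 2.63 in sh-ANP32B.

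The processing decided some of the 7 genes outside the limits. KNL1 and PMF1 were called lower after median-of-ratios scaling, as was CENPL, and KNL1 and CENPP were called lower after quantile normalization. PMF1 was also called with a pseudocount of 0.1 (-0.50), without the first NC library (-0.55) and without the second sh-ANP32B library (-0.59), and CENPL without the first sh-ANP32B library (-0.52). MIS12, NSL1 and CENPI were called under none of the scalings, filters, pseudocounts and left-out libraries that were tried, although each had a negative log2FC throughout.

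**Figure D2:**
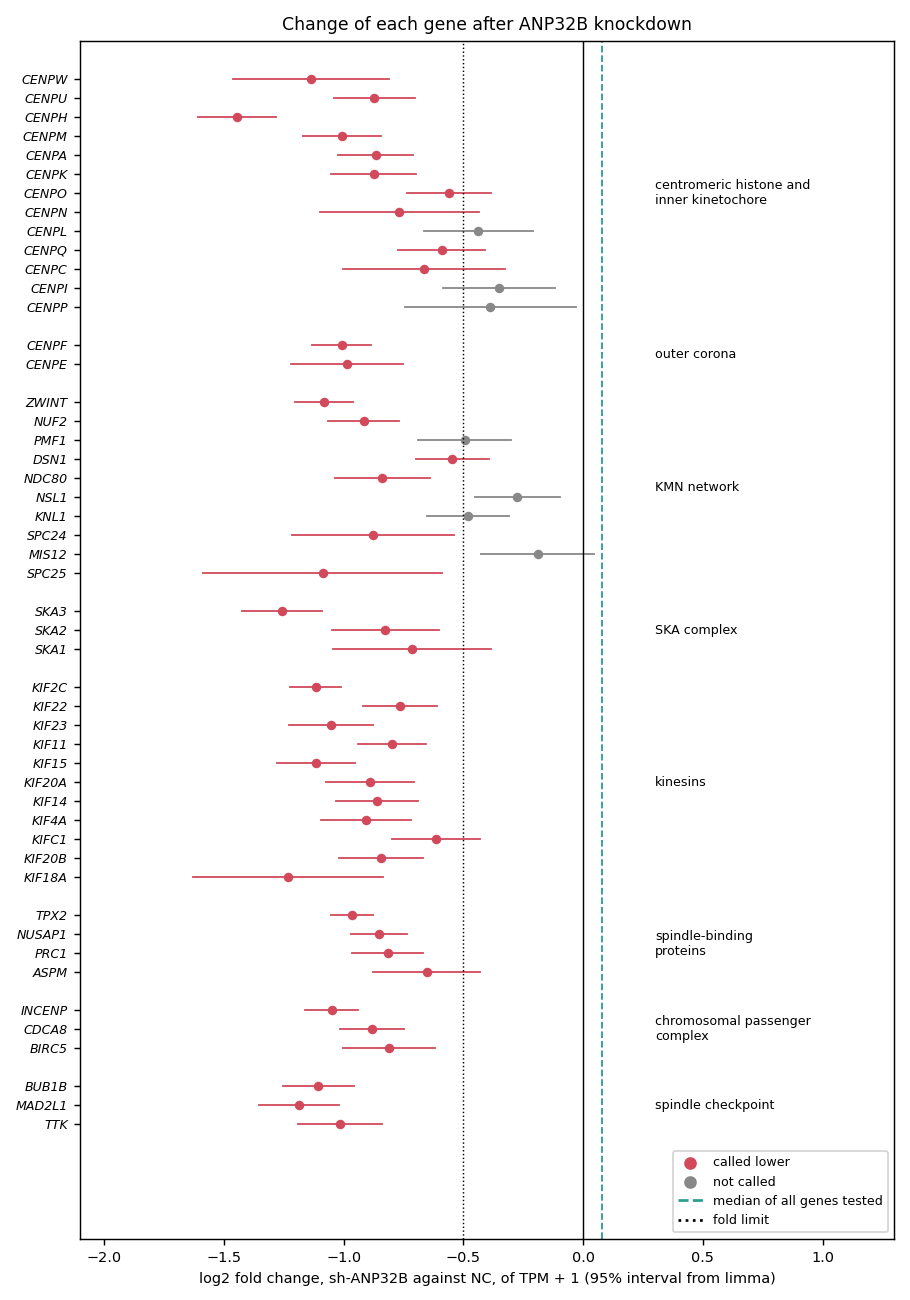
Log2FC of each of the 49 genes (sh-ANP32B against NC, on log2(TPM + 1)) with its 95% interval from limma, in the order of the plot of levels. The 42 genes in red were called lower, the 7 in grey were not, and the dashed line marks the median of all genes tested at 0.079.

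The SKA complex keeps the NDC80 complex on moving microtubule ends, and all 3 of its genes fell. SKA3 had 40.3 and 40.7 TPM in NC and 16.2 and 16.5 TPM in sh-ANP32B, at a log2FC of -1.26 (standard error 0.067, adjusted p = 0.000178 from limma), the second lowest of the set. SKA2 had 32.6 and 37.2 TPM against 18.7 and 19.8 TPM, and SKA1 13.4 and 13.6 TPM against 8.72 and 7.01 TPM, with log2FCs of -0.83 and -0.72. The fibrous corona around the outer kinetochore was represented by CENPE and CENPF, and both were at about the same fraction of control. CENPE, a kinesin that carries chromosomes toward the spindle equator, had 22.6 and 24.2 TPM in NC and 11.8 and 10.8 TPM in sh-ANP32B. CENPF, a large coiled-coil protein that binds dynein regulators, had 100.4 and 103 TPM against 50.9 and 49.3 TPM. Their log2FCs were -0.99 and -1.01.

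All 11 mitotic kinesins of the set other than CENPE fell. Their median log2FC was -0.89, with a range from -1.23 for KIF18A to -0.61 for KIFC1. KIF2C, which depolymerizes microtubules at the centromere, had the highest level of them, 159 and 158 TPM in NC and 73.2 and 71.6 TPM in sh-ANP32B. Its log2FC was -1.12 (standard error 0.042, adjusted p = 8.85e-05 from limma). KIF18A, which damps chromosome movement at the spindle equator, had 18.5 and 14.9 TPM against 7.28 and 5.77 TPM, so 39.1% of the control mean was left. KIF11, the motor that pushes the spindle poles apart, had 57.7 and 58.3 TPM in NC and 33.6 and 32.2 TPM in sh-ANP32B, at a log2FC of -0.80. KIF15, which can take over from KIF11, had 53.4 and 54.6 TPM against 23.6 and 25.2 TPM, at a log2FC of -1.12. The 95% intervals of this pair, -0.94 to -0.66 for KIF11 and -1.28 to -0.95 for KIF15, did not overlap, and the difference itself was not tested. KIFC1, a minus-end motor that draws poles together, had 33.4 and 33.7 TPM in NC and 22.4 and 20.7 TPM in sh-ANP32B.

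The motors of the spindle midzone, of cytokinesis and of chromosome arms were among the 11 that fell. KIF23, the motor subunit of the centralspindlin complex, had 57.6 and 60.01 TPM in NC and 29.2 and 26.5 TPM in sh-ANP32B, at a log2FC of -1.05. KIF20A, which brings the chromosomal passenger complex to the midzone, had 50.1 and 50.1 TPM against 25.1 and 28.1 TPM (log2FC -0.89). KIF20B and KIF14, both needed late in cytokinesis, had 33.4 and 32.7 TPM against 18.3 and 17.6 TPM and 44.6 and 43.4 TPM against 24.6 and 22.9 TPM. KIF4A and KIF22 bind chromosome arms. KIF4A had 39.3 and 42.2 TPM in NC and 22.03 and 20.6 TPM in sh-ANP32B, and KIF22 had 128 and 134 TPM against 80.2 and 72.8 TPM, with log2FCs of -0.91 and -0.77.

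Among the proteins that bind and bundle spindle microtubules, TPX2 had the highest level of all 49 genes. TPX2, which activates the kinase AURKA and nucleates microtubules near chromosomes (chromosome 20 of hg38, from 31739271 to 31801805), had 499 and 498 TPM in NC and 252 and 258 TPM in sh-ANP32B. Its log2FC was -0.97 (standard error 0.035, adjusted p = 8.55e-05 from limma). NUSAP1, which stabilizes microtubules around chromatin, had 197 and 202 TPM against 107 and 113 TPM, and PRC1, which cross-links midzone microtubules, had 126 and 132 TPM against 76.1 and 69.8 TPM. Their log2FCs were -0.85 and -0.82. ASPM, a spindle pole protein, had 20.6 and 21.6 TPM in NC and 13.6 and 12.5 TPM in sh-ANP32B, at a log2FC of -0.65. All 4 fell.

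All 3 genes of the chromosomal passenger complex and all 3 of the spindle checkpoint in the set fell. Among checkpoint genes outside the set, BUB1 fell (-1.14), whereas MAD1L1 was not called (-0.026). INCENP, the scaffold of the passenger complex, had 129 and 129.7 TPM in NC and 61.04 and 62.7 TPM in sh-ANP32B, at a log2FC of -1.05 (standard error 0.045). CDCA8 (borealin) had 113 and 106 TPM against 57.9 and 59.7 TPM, and BIRC5 (survivin), also known as an inhibitor of apoptosis, had 48.4 and 51.4 TPM against 29.6 and 26.5 TPM. These gave log2FCs of -0.88 and -0.81. The 3 checkpoint genes had the lowest median of the roles with more than 2 genes, at -1.11. MAD2L1, which sequesters the anaphase activator CDC20, had 47.5 and 45.3 TPM in NC and 20.2 and 19.5 TPM in sh-ANP32B, at a log2FC of -1.19 (standard error 0.067, adjusted p = 0.000199 from limma). BUB1B (BubR1) had 91.96 and 97.3 TPM against 44.8 and 42.03 TPM, and the checkpoint kinase TTK had 38.6 and 38.2 TPM against 17.9 and 19.05 TPM, with log2FCs of -1.11 and -1.02.

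Of the 49 genes, 14 are on the G2/M list that the Seurat package uses to score the cell cycle. All 14 fell, with a median log2FC of -0.90 and a range from -1.12 to -0.80. Of the other 35, 28 fell, with a median of -0.83 and a wider range from -1.45 to -0.19. Of all genes tested, 10.1% were called lower. The 7 genes that were not called were all off that list, but so were 35 of the 49, and the difference was not tested. The other genes of that list were not counted. Across the 49 genes, Spearman's rho between mean TPM and log2FC was -0.379, and across all genes tested it was -0.219. These describe genes within the same 4 libraries, which share their normalization, and the log2(TPM + 1) scale understates the change of low genes such as CENPP and SPC25.

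Other parts of the mitotic apparatus gave context for the set, beside the 10.1% lower and 17.9% higher of all genes tested. Of 28 further kinetochore and centromere genes, 15 fell and 1 rose, with a median log2FC of -0.57. BUB1, a checkpoint kinase, and HJURP, the chaperone that deposits CENPA, were lowest, at -1.14 and -1.13. NDEL1, a dynein regulator, was at 0.49 and just inside the limit, and it was called higher with a pseudocount of 0.1 (0.50), without the first NC library (0.52) and without the first sh-ANP32B library (0.56). CLIP1, a microtubule plus-end protein used throughout the cell cycle, rose by 1.01. Of 22 further spindle and midzone genes, 15 fell and 0 rose, with a median of -0.64. PLK1 and DLGAP5 were lowest, both at -1.01, whereas NUMA1 (-0.040) and MAPRE1 (0.031, and -0.066 after median-of-ratios scaling) were close to 0. Of 16 genes of augmin and the gamma-tubulin ring complex, which nucleate microtubules, 9 fell and 1 rose. TUBGCP4 was lowest at -0.92 and NEDD1 followed at -0.85, while TUBGCP2 was at 0.35 and TUBGCP6 rose by 0.52, a call that was lost after median-of-ratios scaling (0.43), without the first NC library (0.44) and without the first sh-ANP32B library (0.46).

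Kinesins outside mitosis were compared as members of the same motor family. Of 23 transport kinesins and kinesin light chains, 16 were listed in the deposited table. All 16 passed the filter of at least 1 TPM in at least 2 libraries. Of these, 2 fell and 3 rose, with a median log2FC of 0.22. These counts are near the 10.1% lower and 17.9% higher of all genes tested, so they show nothing particular to this list. The 12 mitotic kinesins of the set, CENPE included, had a median of -0.90. Their highest value, -0.61 for KIFC1, lay below all but 2 of the 16. KIF18B and KIF2A, counted above among the further spindle genes, were at -0.80 and -0.53. KLC4, a light chain, had 23.7 and 23.6 TPM in NC and 46.2 and 45.7 TPM in sh-ANP32B, at a log2FC of 0.93, and KIF3C had one of 0.76. KIF21A fell, with 7.95 and 6.96 TPM against 4.07 and 3.71 TPM. KIF9 had 13.2 and 20.5 TPM against 10.96 and 8.78 TPM and was called at an adjusted p of 0.0484 in limma, which became 0.0749 with the replicate number as a block and 0.051 with no filter on low values. Its log2FC was -0.39 without the second NC library and -0.55 without the second sh-ANP32B library, and limma's adjusted p was then 0.144 and 0.149. Of 11 alpha and beta tubulin genes tested, 2 fell and 2 rose. TUBB, a main beta tubulin, was at -0.80 and TUBA1B at -0.52, and the call of TUBA1B was lost after quantile normalization (-0.38), without the first NC library (-0.44) and without the second sh-ANP32B library (-0.46). TUBA1A rose from 217 and 197 TPM to 347 and 349 TPM. TUBA8, with 2.08 and 1.85 TPM in sh-ANP32B, was at 0.87, and its call was lost after quantile normalization (0.55) and without either NC library (0.96 and 0.78).

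**Figure D3:**
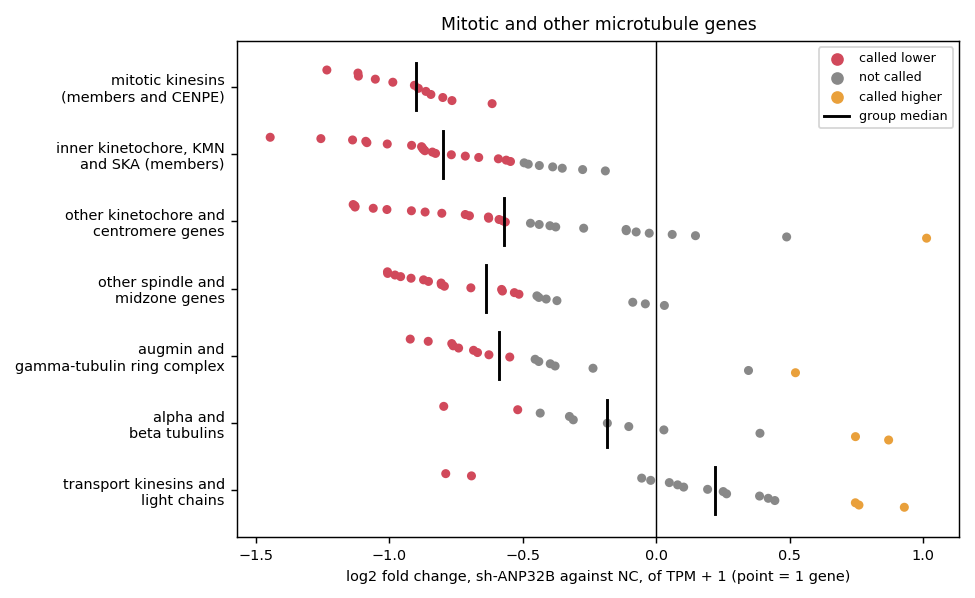
Log2FC (sh-ANP32B against NC, on log2(TPM + 1)) of single genes in 7 groups, with a bar at each group median. The 12 mitotic kinesins of the set lie between -1.23 and -0.61, whereas 14 of the 16 transport kinesins and light chains lie above -0.06.

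The regulators named above were also measured. MYBL2 (B-MYB) had 166 and 168 TPM in NC and 82.7 and 80.2 TPM in sh-ANP32B, and FOXM1 had 102 and 109 TPM against 53.3 and 54.9 TPM. LIN9, a subunit of the MuvB core, had 27.2 and 24.4 TPM against 14.8 and 14.1 TPM. Their log2FCs were -1.03, -0.95 and -0.79, and all 3 fell. Of the other MuvB subunits, RBBP4 fell (-0.52, and -0.49 and not called after quantile normalization), whereas LIN54 (-0.27), LIN52 (0.038) and LIN37 (0.39) were not called, although LIN37 was called higher without the second NC library (0.56). LIN52 was below 0 after both scalings and without the first sh-ANP32B library. Of the DREAM partners, RBL1 (p107) and TFDP2 fell, at -0.59 and -0.68. The call of RBL1 was lost without the second sh-ANP32B library (-0.48), and that of TFDP2 without this library (-0.49) or either NC library (-0.63 and -0.73). RBL2 (p130, 0.36) and E2F4 (-0.076, and 0.012 without the second NC library) were not called. CDKN1A, which encodes the CDK inhibitor p21, rose from 8.56 and 7.15 TPM to 16.5 and 20.2 TPM (log2FC 1.13, adjusted p = 0.00215 from limma). TFDP1 (-0.48) and E2F5 (-0.41) were inside the limit and not called, at adjusted p of 0.000332 and 0.026 from limma. Over the 14 genes of this list, 6 fell, 1 rose and the median was -0.44. Of all genes tested, 10.1% were called lower and 17.9% higher.

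Of the 49 genes, 16 start back to back with another protein-coding gene, that is, on opposite strands with starts at most 1000 bases apart in GENCODE version 44. Of these 16 members, 12 fell, and of their 16 neighbours 2 fell, 0 rose and 14 were not called. The median log2FC was -0.83 for the members and -0.11 for the neighbours. In 15 of 16 pairs the neighbour had the higher value. The median of all genes tested was 0.079, so most genes would lie above members this low. The neighbours' count of lower genes is near the 10.1% of all genes tested, so it shows nothing particular to neighbours. KIF11 and IDE, the gene of insulin-degrading enzyme, start 9 bases apart. IDE had 21.1 and 21.1 TPM in NC and 24.9 and 23.03 TPM in sh-ANP32B, at a log2FC of 0.17, next to -0.80 for KIF11. CENPK and PPWD1, a peptidyl-prolyl isomerase gene, start 68 bases apart, and PPWD1 had 53.6 and 57.7 TPM against 61.7 and 69.6 TPM, at a log2FC of 0.23. MMUT, which shares a start region with CENPQ, was at 0.27. MRPL57, a mitochondrial ribosomal protein gene beside SKA3, had a log2FC of -0.23, against -1.26 for SKA3. Of the 2 neighbours that fell, PRR11 beside SKA2 had 80.99 and 86.2 TPM against 53.3 and 54.8 TPM, and the other, in the 1 pair that went the opposite way, is not reported by name here. KIAA1143 beside KIF15 was at -0.50, just inside the limit, and it was called lower after median-of-ratios scaling (-0.59), among other settings. In 5 of the 16 pairs the annotated starts overlap, and in 2 of the 16 the neighbour was itself reduced, so the contrast did not hold for each pair.

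**Figure D4:**
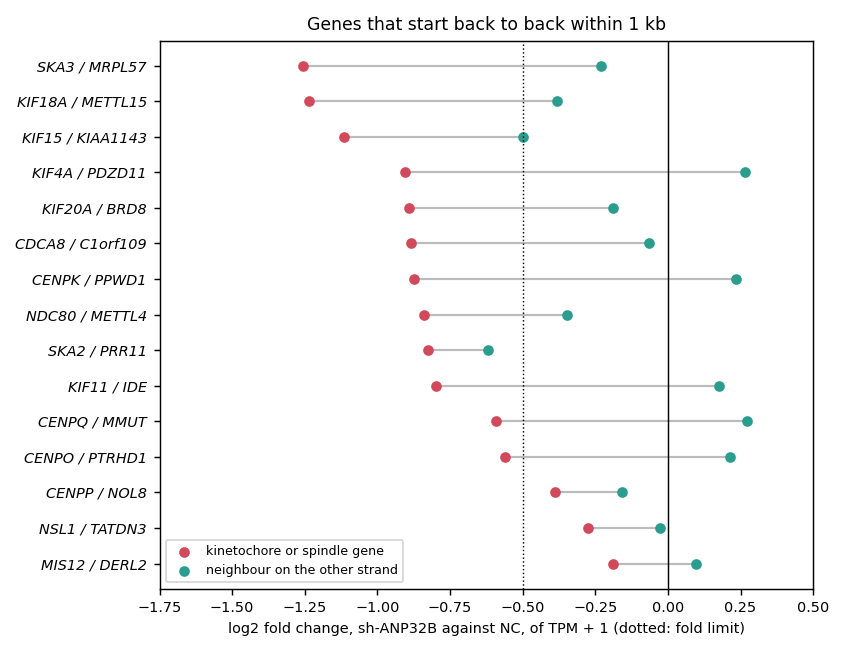
Log2FC (sh-ANP32B against NC, on log2(TPM + 1)) of 15 kinetochore or spindle genes and of the protein-coding gene that starts back to back with each. The neighbour lies to the right of its partner in all 15 pairs drawn, and the 1 pair of the 16 that went the opposite way is not drawn.

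Several values are uncertain because reads could be shared. In GENCODE version 44, 19 of the 49 genes share exonic bases with another gene, 6 of them on the same strand, and the sources used here do not state whether strand was used in counting. The longest overlaps were 3720 bases of CENPP with IPPK, 3181 bases of PRC1 and 2938 bases of NUSAP1 with unnamed protein-coding genes on the same strand, 1892 bases of PRC1 with its antisense gene PRC1-AS1, and 1488 bases of CENPO with ADCY3. PMF1 shares 587 bases with PMF1-BGLAP. Pseudogenes are named in the annotation for 7 of the 49 genes, among them CENPN and CENPU.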

How the data were processed

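RNA-seq of MV4-11 cells was analysed in 2 NC and 2 sh-ANP32B libraries, grouped by their sample titles. The authors aligned reads to hg38 with HISAT2 2.0.5 and deposited gene-level TPM. This unit was read from the values, which sum to between 997271 and 998546 per library. The tool behind the TPM, its annotation and its use of strand are not given in the sources used here. The knockdown columns carry the mark S3 and were taken as the sh-ANP32B samples by elimination. Of 18885 gene identifiers, 17290 had a symbol. No gene in the table has a mean under 0.500 TPM.

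The study's own caller needs read counts, so it was not used. For TPM, limma 3.58.1 (R 4.3.3, lmFit and eBayes with a trend) was fitted on log2(TPM + 1) to the 16937 genes that reached 1 TPM in 2 or more libraries, with Benjamini-Hochberg adjustment. A gene was called when its adjusted p was below 0.05 and its log2 fold change (log2FC, sh-ANP32B against NC) passed 0.5, the study's fold limit. Same-numbered libraries did not deviate together (correlation -0.0232), so no block was used. The members and lists were chosen with earlier results of these data known. All members are named, and of each other list the 2 lowest and 2 highest genes, except that any gene of the regulator and proliferation lists may be named. CENPT, CENPS, CENPX, MAD1L1, KIF2A and KIF18B were named in addition, after their values were seen. Neighbours were named after their values were seen. Positions come from GENCODE version 44, promoter windows from RefSeq, and the G2/M list from Seurat 5.3.0. Python 3.11.15, pandas 2.3.3, scipy 1.17.1 and matplotlib 3.10.9 made the tables and plots. Alternatives were the replicate block, a pseudocount of 0.1, other filters and scalings, other call limits and each library left out. CUT&Tag data were not analysed here. Some markers and a neighbouring gene entered the counts but are not reported individually here.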

Additional observations from a re-analysis of the deposited data

How the results depend on the processing

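Over the refits of the 49 members, 480 values kept the direction and the call, 9 gained a call and 1 lost it, and 0 changed direction. With the replicate number as a block, 42 members were called lower and 0 higher, and 1671 and 2853 of all genes. The pairing by number rests on the labels alone, and the block changed no member's call. A fold limit of 1 left 15 members, and 273 lower and 1136 higher genes of the whole table. The treat test against a limit of 0.5 was not among the refits counted above. It called 31 members lower, against 42 in the main fit, and 481 lower and 950 higher genes of the whole table. The median of the members was -0.88 with a pseudocount of 0.1 and -0.96 after median-of-ratios scaling, and it lay between -0.88 and -0.85 with each library left out in turn. MAPRE1 changed sign after median-of-ratios scaling, to -0.066. LIN52 did so after median-of-ratios scaling (-0.053) and quantile normalization (-0.064). With each library left out in turn, LIN52 lay between -0.075 and 0.15 and E2F4 between -0.16 and 0.012. With 2 libraries per group and TPM without read numbers, no counting error can be given. When 1 library of a group is left out, the lone library is assumed to vary like the other groups. The causes of these shifts were not tested.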
